A study of Homo sapiens with 36 samples.

Results

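The genes described here make, sense, carry and remove extracellular adenosine, and they are 9 of the 60591 genes in the mRNA count table, chosen by symbol: ENTPD2, NT5E, ADORA1, ADORA2A, ADORA2B, ADA, ADK, SLC29A1 and SLC29A2. They were followed in 18 mRNA libraries from 2 human colon adenocarcinoma lines, Caco-2 and HT-29, with 3 biological replicates in each of 6 groups. Within each line, cells were left as control, exposed to 300 µM cobalt chloride (CoCl2) for 24 h, or exposed to 5 µM of an oxyquinoline derivative (OD, catalogue code 4896-3212), and both agents were used to imitate hypoxia chemically. Caco-2 cells had first been kept under differentiating conditions for 21 days, and HT-29 cells had not, so that the line and its culture state cannot be told apart. The labels give 0.5 µl of DMSO per ml of medium for the OD and control cultures, and water as the solvent of the CoCl2 stock, whereas the study's methods describe DMSO as also added to the CoCl2 medium, so that the solvent match for CoCl2 is not settled. No genetic change was made in either line, and the readout is RNA, not enzyme activity or adenosine itself.

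Cells release ATP, which ectonucleotidases degrade step by step to AMP, and the membrane enzyme CD73, encoded by NT5E, turns AMP into adenosine. Adenosine acts on G protein-coupled receptors that lower cyclic AMP (cAMP), as ADORA1 does, or raise it, as ADORA2A and ADORA2B do, until equilibrative transporters carry it into the cell, where ADK phosphorylates it and ADA deaminates it. In intestinal epithelium this signalling is known for driving chloride secretion and for dampening inflammation, and NT5E, ADORA2B and SLC29A1 have been described as responsive to hypoxia-inducible factor (HIF), the transcription factor stabilised when oxygen is low.

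Library totals ranged from 12925719 to 22332639 counts, and every level below is in CPM, counts scaled to library size with TMM factors over the 18 libraries, given for replicates 1, 2 and 3 in that order. A gene was called when its false discovery rate (FDR, the Benjamini-Hochberg adjusted p of edgeR over all genes tested) was under 0.05 and its log2 fold change was beyond 1 in either direction. All 9 genes passed the low-count filter in Caco-2 and 7 of 9 passed in HT-29, where ADORA1 and ADORA2A fell below it. The epithelial markers EPCAM, CDH1 and KRT8 were abundant in both lines, with group means from 485 CPM (CDH1, HT-29 control) to 3411 CPM (KRT8, HT-29 OD). All 6 enterocyte markers had lower means in HT-29 control than in Caco-2 control, but only 3 of the 6 passed the low-count filter in HT-29. The others entered the comparison of the lines only through Caco-2, so no count of calls is given for this list. The other 3 epithelial markers varied: KRT20 was 5.43 CPM in Caco-2 control and 336 CPM in HT-29 control. With CoCl2 in HT-29, VIL1 fell from 215 to 32.6 CPM and CDX2 from 13.4 to 4.49 CPM, and KRT20 rose to 733 CPM. Among 4 markers of other cell types, PTPRC, COL1A2 and DCN stayed at 3 counts or fewer in every library. The summed level of the 4 markers, carried by PECAM1, was 7.02 to 11.3 CPM in Caco-2 control, 1.59 to 2.38 CPM with CoCl2 and 5.15 to 5.76 CPM with OD. The corresponding ranges in HT-29 were 1.59 to 2.34, 0.362 to 0.537 and 0.991 to 1.24 CPM, and its part in the results below, like that of VIL1 and CDX2, was not tested. Of 9 HIF target genes, CoCl2 raised 8 of 8 tested in Caco-2 (9.13% of all genes called higher, 23.4% called either way). In HT-29 it raised 8 of 9 (2749 of 15812 genes called higher, 41.3% called either way). OD raised 6 of 8 in Caco-2 (711 of 16034 genes called higher, 11.7% either way) and 4 of 9 in HT-29 (1502 of 15812 higher, 17.1% either way). The study itself reported ANKRD37, NDRG1, PDK1 and BNIP3 as responding to both agents in Caco-2, so the Caco-2 counts are not an independent check. In bulk samples, fewer cells of a kind and less RNA per cell cannot be told apart.

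The general pattern was as follows. With CoCl2 in Caco-2, 5 of the 9 genes were called, ENTPD2 and ADORA2B higher and NT5E, ADORA2A and SLC29A2 lower, in a comparison in which 23.4% of all genes tested were called (9.13% higher, 14.2% lower). With CoCl2 in HT-29, NT5E, SLC29A1 and SLC29A2 were called lower, against 41.3% of all genes called and 23.9% called lower. ADA was also called lower, which made 4 of the 7 genes tested. It passed the low-count filter only through its control and OD libraries, where it is higher, so only a fall could be called. ADA rests on 5 against 24 counts and lost its call with DESeq2 (FDR 0.0533). With OD, only NT5E in Caco-2 was called (1 of 9, against 11.7% of all genes, 7.27% lower), and 0 of 7 were called in HT-29 (17.1% of all genes) by edgeR and by DESeq2, while 3 had an unadjusted p under 0.05. By the FDR alone, without the fold limit, CoCl2 gave 8 of 9 genes in Caco-2 (64.7% of all genes) and 4 of 7 in HT-29 (82.8%), and OD gave 5 of 9 (50.4%) and 3 of 7 (68.8%). The 4 with CoCl2 in HT-29 again include ADA. Over all genes, the calls with CoCl2 in Caco-2 were 1464 higher and 2283 lower, against 870 and 3546 when scaled by library size alone. For HT-29 they were 2749 and 3775, against 1295 and 6250. In Caco-2 the median log2 fold change of the 9 genes was -0.63 with CoCl2 and -0.21 with OD, beside -0.03 and -0.02 over all genes. In HT-29 the median of the 7 was -1.14 with CoCl2 and 0.13 with OD, beside -0.03 and 0.01. The share called with OD in Caco-2 (1 of 9) was near the background. Both treatments share the control libraries of their line.

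**Figure D1:**
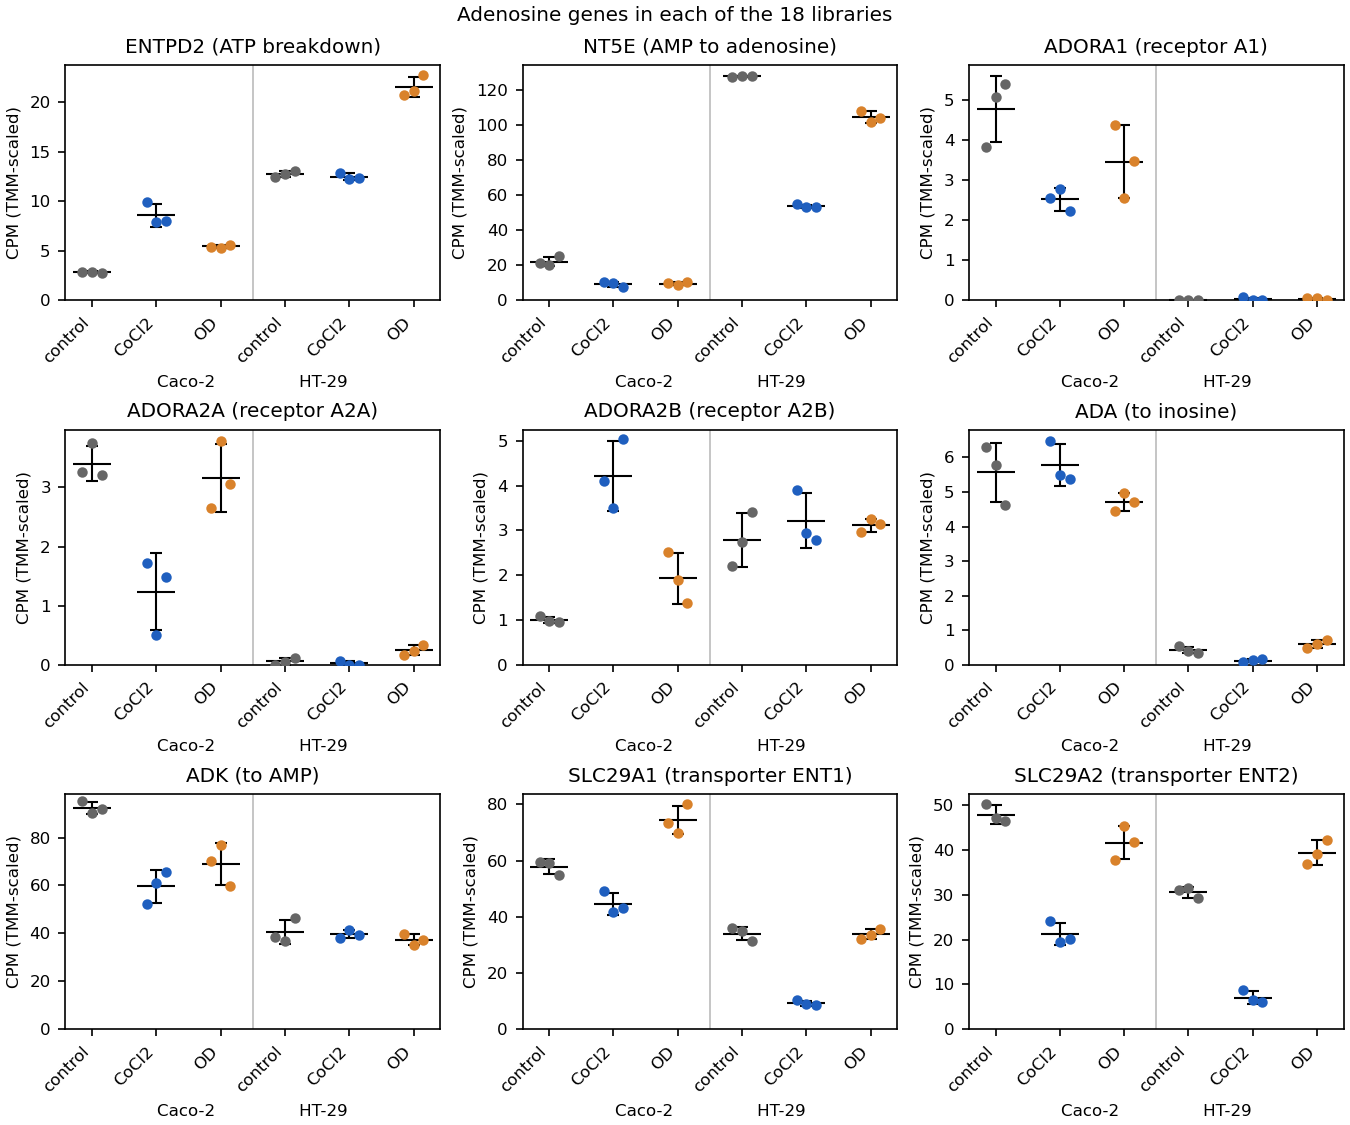
Level of each of the 9 genes (CPM after TMM scaling, linear axis from 0) in each of the 18 libraries, with 3 libraries per group as points, the black mark as the group mean and the bar as the SD. NT5E in HT-29 stood near 128 CPM in control and 53.6 CPM with CoCl2, and ADORA1 was near 0 in every HT-29 library.

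The first step of the route, breakdown of ATP at the cell surface, is served by ENTPD2, which prefers ATP to ADP. In Caco-2, ENTPD2 stood at 2.86, 2.90 and 2.73 CPM in control, at 9.92, 7.92 and 7.96 CPM with CoCl2 and at 5.43, 5.32 and 5.62 CPM with OD. The 3 groups did not overlap, with control lowest and CoCl2 highest. ENTPD2 rose 3.02-fold with CoCl2 (log2 fold change 1.59, SE 0.175, FDR 2.25e-08), and with OD its log2 fold change of 0.94 (FDR 0.00014) passed the FDR but not the fold limit. In HT-29, ENTPD2 stood at 12.4, 12.7 and 13 CPM in control, 12.9, 12.3 and 12.3 CPM with CoCl2 and 20.7, 21.2 and 22.7 CPM with OD. There the OD libraries lay above all others, with a log2 fold change of 0.77 (FDR 2.01e-09) short of the fold limit. For CoCl2 in HT-29 the log2 fold change was 0.08 with a 95% interval of -0.10 to 0.25, and it was -0.56 (FDR 2.54e-06) under scaling by library size alone, so that no direction is given.

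NT5E, the AMP-hydrolysing enzyme that completes adenosine production, was lower with CoCl2 in both lines, and it was the one gene of the 9 called with OD. In Caco-2, NT5E stood at 21.3, 19.9 and 25.1 CPM in control, at 10.2, 9.84 and 7.54 CPM with CoCl2 and at 9.66, 8.58 and 10.5 CPM with OD. All 6 treated libraries lay below the 3 controls, and the CoCl2 and OD groups overlapped. NT5E fell 2.42-fold with CoCl2 (log2 fold change -1.28, SE 0.137, FDR 1.70e-08) and 2.31-fold with OD (log2 fold change -1.21, SE 0.136, FDR 8.03e-08). On the deposited log2(RPKM + 1) values, a scale that understates the change of low genes, both stayed under the fold limit (-0.99 and -0.95). In HT-29 the NT5E level was higher, at 127, 128 and 128 CPM in control, 54.7, 53.0 and 53.0 CPM with CoCl2 and 108, 102 and 104 CPM with OD. NT5E fell 2.21-fold there with CoCl2 (log2 fold change -1.14, SE 0.0498, FDR 1.39e-17). The OD group lay below the control group without overlap, but with a log2 fold change of only -0.27 (FDR 9.56e-06).

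Among the receptors, ADORA2B, which couples to cAMP production and is the adenosine receptor best known from intestinal epithelial cells, was scarce in Caco-2 control. ADORA2B stood at 1.09, 0.987 and 0.954 CPM in control (19, 15 and 14 counts), at 4.10, 3.50 and 5.04 CPM with CoCl2 (50, 49 and 95 counts) and at 2.52, 1.89 and 1.39 CPM with OD (38, 32 and 20 counts). Every treated library lay above every control library, and every CoCl2 library above every OD library. ADORA2B rose 4.17-fold with CoCl2 (log2 fold change 2.06, SE 0.277, FDR 5.76e-07), the highest rise among the 9 genes in Caco-2 by edgeR. On the deposited log2(RPKM + 1) values it was 0.91, under the fold limit and below ENTPD2 (1.02). With OD the log2 fold change was 0.93 (SE 0.306, FDR 0.0140), which became a called 1.11 without OD replicate 3. In HT-29, ADORA2B stood at 2.21, 2.74 and 3.41 CPM in control, 3.91, 2.95 and 2.80 CPM with CoCl2 and 2.96, 3.25 and 3.14 CPM with OD. These groups overlapped, with log2 fold changes of 0.28 for CoCl2 (95% interval -0.09 to 0.65, FDR 0.173) and 0.13 for OD (95% interval -0.22 to 0.48), and scaling by library size alone gave -0.35 and -0.00385.

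ADORA2A, the other receptor that raises cAMP, moved the opposite way in Caco-2. ADORA2A stood at 3.26, 3.75 and 3.20 CPM in control (57, 57 and 47 counts), at 1.72, 0.499 and 1.49 CPM with CoCl2 (21, 7 and 28 counts) and at 2.65, 3.79 and 3.06 CPM with OD. The CoCl2 libraries lay below all others, with replicate 2 lowest, and the OD group overlapped the control group. ADORA2A fell 2.73-fold with CoCl2 (log2 fold change -1.45, SE 0.301, FDR 0.000181), and with OD its log2 fold change was -0.10 (95% interval -0.61 to 0.41). On the opposite strand the gene overlaps ADORA2A-AS1, a long noncoding RNA with 465, 499 and 430 counts in Caco-2 control and 149, 122 and 226 counts with CoCl2, whose log2 fold change was -1.43 (FDR 4.04e-10). The library kit keeps strand but the setting used for counting is not given in the sources used here. Reads of the pair may therefore not be separable, and the ADORA2A value is uncertain. On the same strand ADORA2A also overlaps SPECC1L-ADORA2A, a protein-coding gene with 0 counts in every Caco-2 library. How reads shared by these 2 genes were counted is not given either. In HT-29, ADORA2A had 0, 1 and 3 counts in control, 1, 0 and 0 with CoCl2 and 3, 4 and 6 with OD, at or near the limit that a count of 0 allows (3 counts, or 0.119 to 0.246 CPM per library, which covers counting error only).

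ADORA1, the receptor that lowers cAMP, was detected at a low level in Caco-2. ADORA1 stood at 3.83, 5.07 and 5.38 CPM in control, at 2.54, 2.78 and 2.23 CPM with CoCl2 and at 4.37, 2.54 and 3.47 CPM with OD. The CoCl2 libraries lay below the controls, with a log2 fold change of -0.92 (FDR 0.00115) that was short of the fold limit and became a called -1.06 without control replicate 1. With OD the groups overlapped and the log2 fold change was -0.46 (FDR 0.0788). HT-29 libraries held 0 counts of ADORA1 in all 3 controls and at most 1 count in any treated library, so that no response could be tested.

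**Figure D2:**
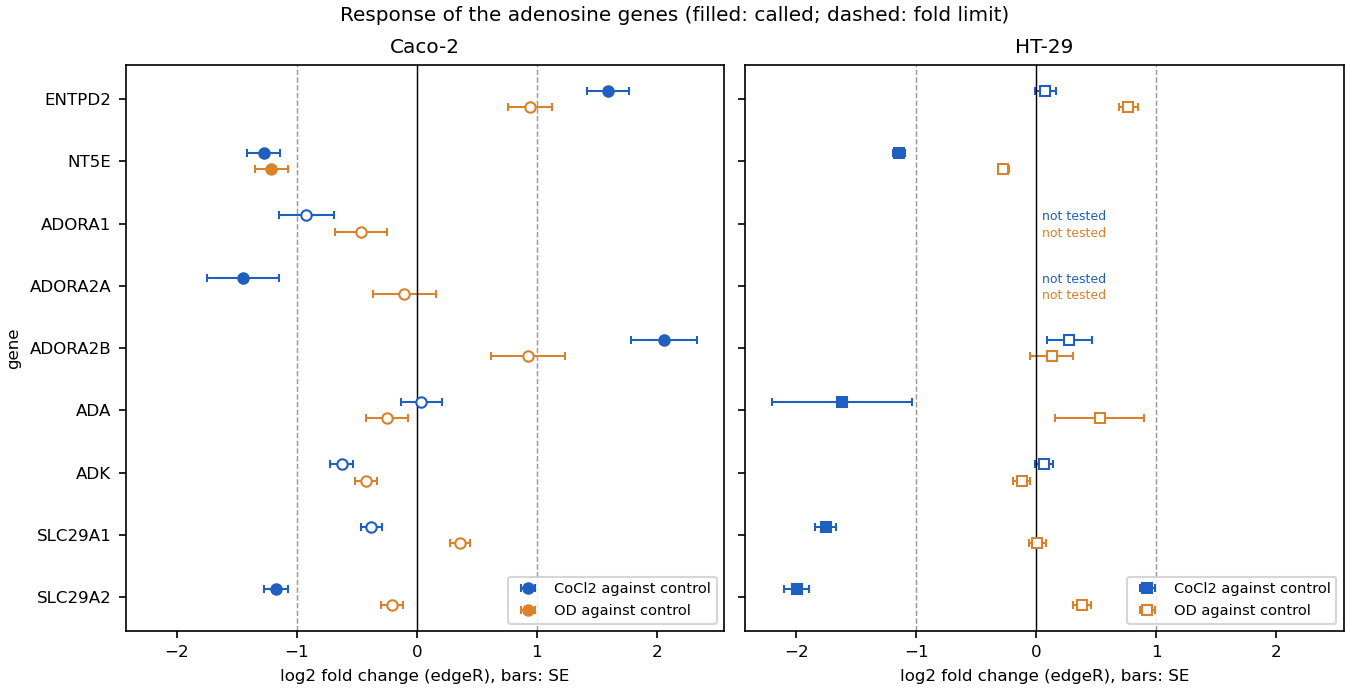
Log2 fold change against control (horizontal axis, edgeR, bars ± SE) of the 9 genes in Caco-2 (left) and HT-29 (right) for CoCl2 and OD, 3 libraries per group; filled symbols were called and dashed lines mark the fold limit of 1. NT5E lay beyond -1 with CoCl2 in both lines (-1.28 and -1.14), while ADORA2B and ENTPD2 lay beyond 1 with CoCl2 in Caco-2 alone.

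Upstream sequences are shown for ADORA2B, ENTPD2 and SLC29A1, which were called with CoCl2 in 1 line and not in the other, and in which the core letters of the HIF binding site were found outside annotated exons of the same gene. The letters ACGTG and GCGTG were searched on both strands in the 250 bases before each RefSeq start (GRCh38.p14), and capitals mark a match. The ADORA2B window is chr17:15944880-15945129 on the plus strand, the ENTPD2 window chr9:137054062-137054311 on the minus strand, and the SLC29A1 stretch chr6:44219365-44219552 on the plus strand, each written 5′ to 3′ in the direction of the gene. Each is free of annotated exons of its own gene, and exons of other genes were not searched.
ADORA2B: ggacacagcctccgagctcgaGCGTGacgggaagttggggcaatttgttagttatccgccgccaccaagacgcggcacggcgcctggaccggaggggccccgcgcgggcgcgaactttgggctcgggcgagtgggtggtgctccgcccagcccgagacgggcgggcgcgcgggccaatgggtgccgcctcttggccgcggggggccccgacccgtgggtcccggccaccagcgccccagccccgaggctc
ENTPD2: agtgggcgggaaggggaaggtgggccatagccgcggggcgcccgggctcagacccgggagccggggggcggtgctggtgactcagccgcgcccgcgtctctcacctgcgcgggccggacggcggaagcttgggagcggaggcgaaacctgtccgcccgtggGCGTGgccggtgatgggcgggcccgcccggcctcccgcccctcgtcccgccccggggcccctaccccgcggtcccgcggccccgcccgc
SLC29A1: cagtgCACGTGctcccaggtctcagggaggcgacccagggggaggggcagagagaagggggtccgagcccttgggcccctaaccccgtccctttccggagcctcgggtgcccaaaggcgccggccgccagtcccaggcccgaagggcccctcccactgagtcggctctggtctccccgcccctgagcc
ADORA2B held 1 GCGTG at 229 bases before its start and ENTPD2 held 1 at 89 bases. In SLC29A1 the ACGTG matches of both strands overlapped within 1 palindrome. Windows were found for 7 of the 9 genes (9 windows, as ADK and SLC29A1 have 2 each), and 5 of the 9 windows held a match, beside 43.2% of 35116 windows of all genes. The NT5E window, which held no match, lies wholly within an annotated exon and is not printed. The stretches of ADK (231 and 38 bases) and of the second SLC29A1 window (214 bases) that are free of exons of the same gene held no match and are not printed either.

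Of the enzymes that remove adenosine, ADK, the kinase that returns it to AMP, was the more abundant. ADK stood at 95.0, 90.1 and 91.7 CPM in Caco-2 control, at 52.1, 61.1 and 65.7 CPM with CoCl2 and at 70.0, 76.9 and 59.9 CPM with OD. All treated libraries lay below all controls, with log2 fold changes of -0.63 (FDR 2.75e-06) and -0.42 (FDR 0.000534), both short of the fold limit. In HT-29, ADK was 40.6 ± 5.11 CPM in control, 39.7 ± 1.75 CPM with CoCl2 and 37.3 ± 2.28 CPM with OD (mean ± SD, n = 3). Those groups overlapped, and the 95% intervals of the log2 fold changes were -0.08 to 0.21 for CoCl2 and -0.26 to 0.02 for OD.

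ADA, which deaminates adenosine to inosine, stood in Caco-2 at 6.29, 5.79 and 4.63 CPM in control, 6.48, 5.49 and 5.36 CPM with CoCl2 and 4.43, 4.97 and 4.72 CPM with OD. Neither treatment passed the FDR there, with log2 fold changes of 0.04 for CoCl2 (95% interval -0.30 to 0.38, and -0.28 under scaling by library size alone) and -0.25 for OD (95% interval -0.59 to 0.10). In HT-29 the gene was close to the detection limit, with 8, 7 and 9 counts in control, 1, 2 and 2 counts with CoCl2 and 9, 10 and 13 counts with OD. The CoCl2 libraries lay below all others, and ADA fell with a log2 fold change of -1.62 (SE 0.581, FDR 0.0128). The gene passed the low-count filter in HT-29 only through its control and OD libraries, so only a fall could be called. Directly from 5 against 24 counts, the ratio was 0.292 with a 95% counting interval of 0.0869 to 0.780. The call was lost without CoCl2 replicate 1 (FDR 0.0606) and with DESeq2 (FDR 0.0533), and ADA overlaps PKIG on the opposite strand.

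The equilibrative transporters move adenosine down its gradient across the plasma membrane, and both were lower with CoCl2 in HT-29. SLC29A1 stood at 35.9, 34.8 and 31.4 CPM in HT-29 control, 10.3, 8.85 and 8.79 CPM with CoCl2 and 32.1, 33.5 and 35.7 CPM with OD. SLC29A1 fell 3.37-fold with CoCl2 (log2 fold change -1.75, SE 0.0886, FDR 3.76e-16), whereas the OD and control groups overlapped, with a 95% interval of -0.13 to 0.15 for the log2 fold change. In Caco-2 it stood at 59.5, 59.1 and 54.9 CPM in control, 49.1, 41.7 and 43.0 CPM with CoCl2 and 73.4, 70.0 and 80.0 CPM with OD. Those 3 groups did not overlap and differed in direction, with log2 fold changes of -0.38 (FDR 0.000502) for CoCl2 and 0.36 (FDR 0.000968) for OD, neither beyond the fold limit.

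SLC29A2, the second plasma membrane transporter, was lower with CoCl2 in both lines. In Caco-2 it stood at 50.1, 47.0 and 46.3 CPM in control, 24.2, 19.5 and 20.1 CPM with CoCl2 and 37.8, 45.2 and 41.7 CPM with OD. SLC29A2 fell 2.26-fold with CoCl2 (log2 fold change -1.18, SE 0.1, FDR 2.92e-10), while OD gave -0.21 (FDR 0.0737). In HT-29 it stood at 31.1, 31.4 and 29.2 CPM in control, 8.70, 6.44 and 6.07 CPM with CoCl2 and 36.8, 39.0 and 42.3 CPM with OD. SLC29A2 fell 3.99-fold with CoCl2 (log2 fold change -2.0, SE 0.102, FDR 4.58e-16), the deepest fall among the 7 genes tested in HT-29. The OD libraries lay above the controls, with a log2 fold change of 0.38 (FDR 5.38e-05) short of the fold limit.

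The lines were also compared without treatment, to show which part of the route each cell model carries. Of the 7 genes that passed the low-count filter in both lines, 3 were called higher in HT-29 control than in Caco-2 control (NT5E, ADORA2B, ENTPD2) and 2 lower (ADA, ADK), where 45.8% of all genes were called (21.6% higher, 24.2% lower). These shares are over all 17921 genes of the joint fit, which also holds genes that passed the filter in a single line. They are therefore not matched to the 7 genes. ADORA1 and ADORA2A passed only through Caco-2, where they are higher, and are described by their counts without a test. NT5E was 5.78-fold higher in HT-29 (log2 difference 2.53, SE 0.0823, FDR 2.23e-24), ENTPD2 4.50-fold higher (2.17, FDR 7.89e-17) and ADORA2B 2.80-fold higher (1.49, FDR 3.94e-06). ADORA1 was at least 29.1-fold lower in HT-29, measured against the limit of 3 counts per library. ADORA2A, with 4 counts in all in HT-29 control against 161 in Caco-2 control, was 49.0-fold lower with a counting interval of 18.8 to 182, and ADA, with 24 against 266 counts, 13.5-fold lower (8.88 to 21.5). ADK was 2.26-fold lower, and SLC29A1 and SLC29A2 differed by -0.77 and -0.65 on the log2 scale, short of the fold limit.

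Levels per length, from the deposited RPKM values, are comparable between genes within a line only, since each line was normalised separately. In Caco-2 control the order was ADK (20.6 RPKM), SLC29A2 (18.3), SLC29A1 (14.0), NT5E (5.06), ADA (2.06), ADORA1 (1.18), ENTPD2 (1.11) and ADORA2B (0.411). In HT-29 control NT5E led with 27.8 RPKM, before SLC29A2 (11.1), ADK (8.59), SLC29A1 (7.82), ENTPD2 (4.76) and ADORA2B (1.08). With CoCl2 in Caco-2, mean RPKM was 1.67 for ADORA2B and 0.607 for ADORA1, and 3.29 for ENTPD2 and 2.05 for NT5E, so that both pairs stood in the reverse order to control. ADORA2A is left out of the deposited RPKM table, and ADORA1 and ADA are left out for HT-29.

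**Figure D3:**
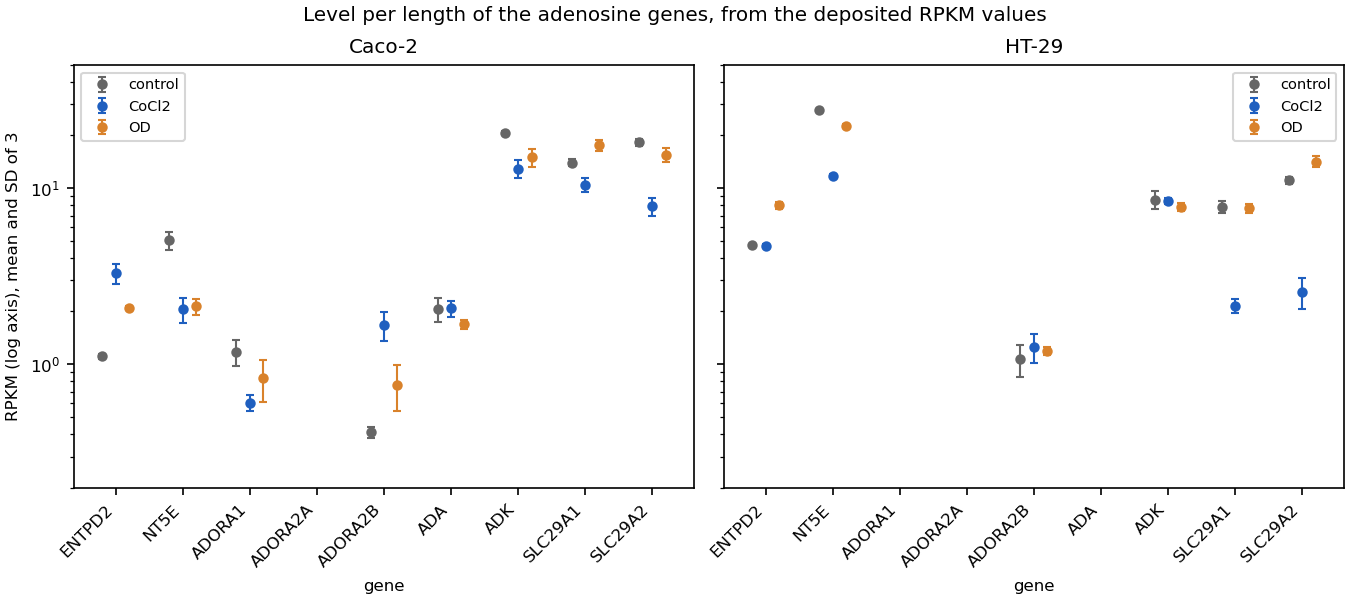
Level per length of the genes listed in the deposited table (RPKM, log axis), with Caco-2 on the left and HT-29 on the right, points as means and bars as SD of 3 libraries; a gene without a point is not in the table for that line. NT5E led in HT-29 control (27.8) and ADK in Caco-2 control (20.6).

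Whether a response differed between the lines was tested as an interaction over the 18 libraries. ADORA1 and ADORA2A entered this fit only through Caco-2, where they are higher, and are left out of the counts given here. For CoCl2, 4 of the other 7 genes were called, all with the lower response in HT-29. Among these, ADA passed the HT-29 filter only through its control and OD libraries, so that its direction in HT-29 was fixed by the filter. In the CoCl2 interaction 21.6% of all genes were called (13.8% lower) and the median of all genes was -0.13. The shares given for both interactions are over 17921 genes, which include genes that passed the filter in a single line, so they are not matched to the 7 genes. The differences in log2 fold change (HT-29 less Caco-2) were -1.89 for ADORA2B (SE 0.333, FDR 1.29e-05), -1.62 for ENTPD2 (SE 0.175, FDR 1.63e-09), -1.49 for SLC29A1 (SE 0.126, FDR 6.35e-12) and -1.76 for ADA (SE 0.595, FDR 0.0140). For NT5E it was 0.03 with a 95% interval of -0.22 to 0.28. For OD, edgeR and DESeq2 called 0 of the 7 (15.2% of all genes). By edgeR, NT5E, SLC29A1 and SLC29A2 passed the FDR alone (42.9% of all genes). ADORA2B and ADK had an unadjusted p under 0.05 without passing it. The NT5E response to OD differed by 0.92 (SE 0.126, FDR 2.45e-07), just inside the fold limit.

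The agents were set side by side at the single dose and time used for each, 300 µM CoCl2 and 5 µM OD for 24 h, which are not matched doses. In Caco-2, ADORA2B was 2.19-fold higher (log2 difference 1.13, FDR 0.000555) and ADORA2A 2.55-fold lower (-1.35, FDR 0.000684) with CoCl2 than with OD, 2 of 9 genes against 11.7% of all genes (5.21% higher, 6.44% lower). Scaled by library size alone, ADORA2B was at 0.97 and no longer called, ADORA2A kept its call (-1.52) and SLC29A2 was called lower (-1.14). ADORA2B dropped under the fold limit without CoCl2 replicate 3 or OD replicate 3 (0.97 and 0.95) and ADORA2A without CoCl2 replicate 2 (-0.99). The NT5E levels under the agents differed by -0.07 on the log2 scale, with a 95% interval of -0.35 to 0.22. In HT-29, SLC29A2 (-2.38, FDR 1.06e-17), ADA (-2.15, FDR 0.000875) and SLC29A1 (-1.76, FDR 6.72e-16) were called lower with CoCl2 than with OD, 3 of 7 genes against 29.9% of all genes (19.2% lower). ADA passed the low-count filter there only through its control and OD libraries, so only a lower call was possible for it. NT5E (-0.87) and ENTPD2 (-0.69) differed by less than the fold limit there.

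Other genes of or near the purine route were counted in lists. Their counts are to be read against the shares of all genes called, for Caco-2 23.4% (CoCl2) and 11.7% (OD), for HT-29 41.3% and 17.1%. The shares passing the FDR alone were 64.7% and 50.4%, and 82.8% and 68.8%. Among 13 genes linked to nucleotide release and breakdown outside the cell, the Caco-2 fit held 10 and the HT-29 fit 6. With CoCl2, 1 was called higher and 1 lower in Caco-2 (23.4% of all genes called) and 2 lower in HT-29 (41.3%), and with OD 0 in Caco-2 (11.7%; edgeR, 4 passing the FDR alone and 6 with an unadjusted p under 0.05) and 1 each way in HT-29. ACP3, an ecto-phosphatase that also releases adenosine from AMP, fell with CoCl2 in Caco-2 (log2 fold change -2.51) and, in HT-29, with CoCl2 (-3.29) and OD (-1.99), from low control means of 1.04 and 5.44 CPM. The first of these values is imprecise, since ACP3 had 0, 3 and 5 counts with CoCl2 in Caco-2. ENTPD8, an ATP-hydrolysing enzyme of the ENTPD2 family, fell with CoCl2 in HT-29 (-1.33). ENPP1, another surface enzyme that makes AMP from ATP, rose with OD in HT-29 (1.92). ALPG, called higher with CoCl2 in Caco-2 (1.02), shares reads with near-identical alkaline phosphatase genes and is uncertain. ENTPD1, which encodes CD39, gave -0.56 (FDR 0.000379) with CoCl2 in Caco-2 and 0.93 (FDR 4.69e-05) with OD in HT-29, within the fold limit.

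Of 17 genes of nucleotide and nucleoside turnover inside the cell, 13 were tested in each line. With CoCl2, 0 were called in Caco-2 by edgeR (23.4% of all genes), with 11 passing the FDR alone (64.7% of all genes) and 11 with an unadjusted p under 0.05, and 3 of 13 rose in HT-29, a share below the 41.3% of all genes called there: AMPD3, the AMP deaminase (log2 fold change 1.99), AK4, a mitochondrial adenylate kinase (1.30), and NT5C3A, a cytosolic nucleotidase (1.22). With OD, XDH, which oxidises hypoxanthine to urate, fell in Caco-2 (-1.14). In HT-29 0 were called with OD by edgeR (17.1% of all genes), with 10 passing the FDR alone (68.8% of all genes) and 10 with an unadjusted p under 0.05. PNP, which splits inosine, stayed within the fold limit with CoCl2, at 0.98 in Caco-2 and 0.94 in HT-29.

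Of 5 other nucleoside transporters, 4 were tested in each line. In Caco-2, 3 were called under CoCl2 (23.4% of all genes) and 2 under OD (11.7%). HT-29 had 2 of 4 called under CoCl2, near the share of all genes (41.3%), and 2 of 4 under OD (17.1%). Among them, SLC29A4, a transporter of the SLC29A1 family that also carries monoamines, moved in opposite directions in the lines. Its level was 48.4, 58.4 and 56.4 CPM in Caco-2 control, 18.6, 15.1 and 18.1 CPM with CoCl2 and 19.3, 22.9 and 23.9 CPM with OD. In HT-29 it was 10.7, 9.14 and 9.27 CPM in control, 23.4, 17.3 and 19.3 CPM with CoCl2 and 26.9, 29.5 and 29.4 CPM with OD. Treated libraries lay below the controls in Caco-2 and above them in HT-29. SLC29A4 fell in Caco-2 (log2 fold changes -1.65 under CoCl2 and -1.31 under OD) and rose in HT-29 (1.16 and 1.58), and the interactions were 2.7 (FDR 5.94e-16) and 2.87 (FDR 9.03e-17). SLC29A3, a transporter of lysosomal membranes, rose in Caco-2 with both agents (1.01 and 1.10). SLC28A1 fell with CoCl2 in Caco-2 (-1.53) and rose with it in HT-29 (1.51), both from control means of 1.00 CPM or less. SLC28A3, a concentrative transporter, rose with OD in HT-29 (1.76).

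Among 9 other purine receptors, 5 were tested in each line. P2RY1, an ADP receptor, fell with CoCl2 in Caco-2 (-1.09). In HT-29, P2RX4, an ATP-gated channel, rose with OD (1.48), P2RY11 fell with OD (-1.02), and P2RY6 was called higher with CoCl2, at a mean of 0.834 CPM, with a control mean of 0.0513 CPM that lies below the limit of 3 counts. P2RY6 passed the low-count filter in HT-29 only through its CoCl2 libraries, so only a rise could be called and this call is no evidence of a response. In Caco-2 0 were called with OD by edgeR (11.7% of all genes), with 2 passing the FDR alone (50.4% of all genes) and 4 with an unadjusted p under 0.05.

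Of 8 genes known to be induced by cAMP, 4 of the 5 tested in Caco-2 rose with CoCl2 (9.13% of all genes were called higher): CREM (log2 fold change 1.99), NR4A1 (1.96), PER1 (1.73) and NR4A2 (1.26). The fifth, PDE4D, had a log2 fold change of -0.87 (FDR 7.36e-05), short of the fold limit. With OD in Caco-2, 2 rose, NR4A1 (1.94) and NR4A2 (1.08), where 11.7% of all genes were called either way and 711 of 16034 were called higher. In HT-29, where 6 were tested, CREM (3.39), PER1 (2.22) and NR4A1 (1.04) rose and PDE4B (-2.36) fell with CoCl2, and PER1 (2.21) and NR4A1 (1.37) rose and PDE4B (-1.77) fell with OD. PDE4B is near the detection limit in HT-29, with 0, 6 and 3 counts with CoCl2 and 8, 8 and 3 counts with OD. It passed the low-count filter there through its control libraries alone, so only a fall could be called. The shares of all genes called in HT-29 were 41.3% with CoCl2 and 17.1% with OD. CREM was 8.89 ± 0.389 CPM in Caco-2 control and 35.3 ± 1.84 CPM with CoCl2, and 7.88 ± 0.149 and 76.4 ± 1.46 CPM in HT-29 (mean ± SD, n = 3). These genes also respond to other signals. Their part in any adenosine response was not tested.

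**Figure D4:**
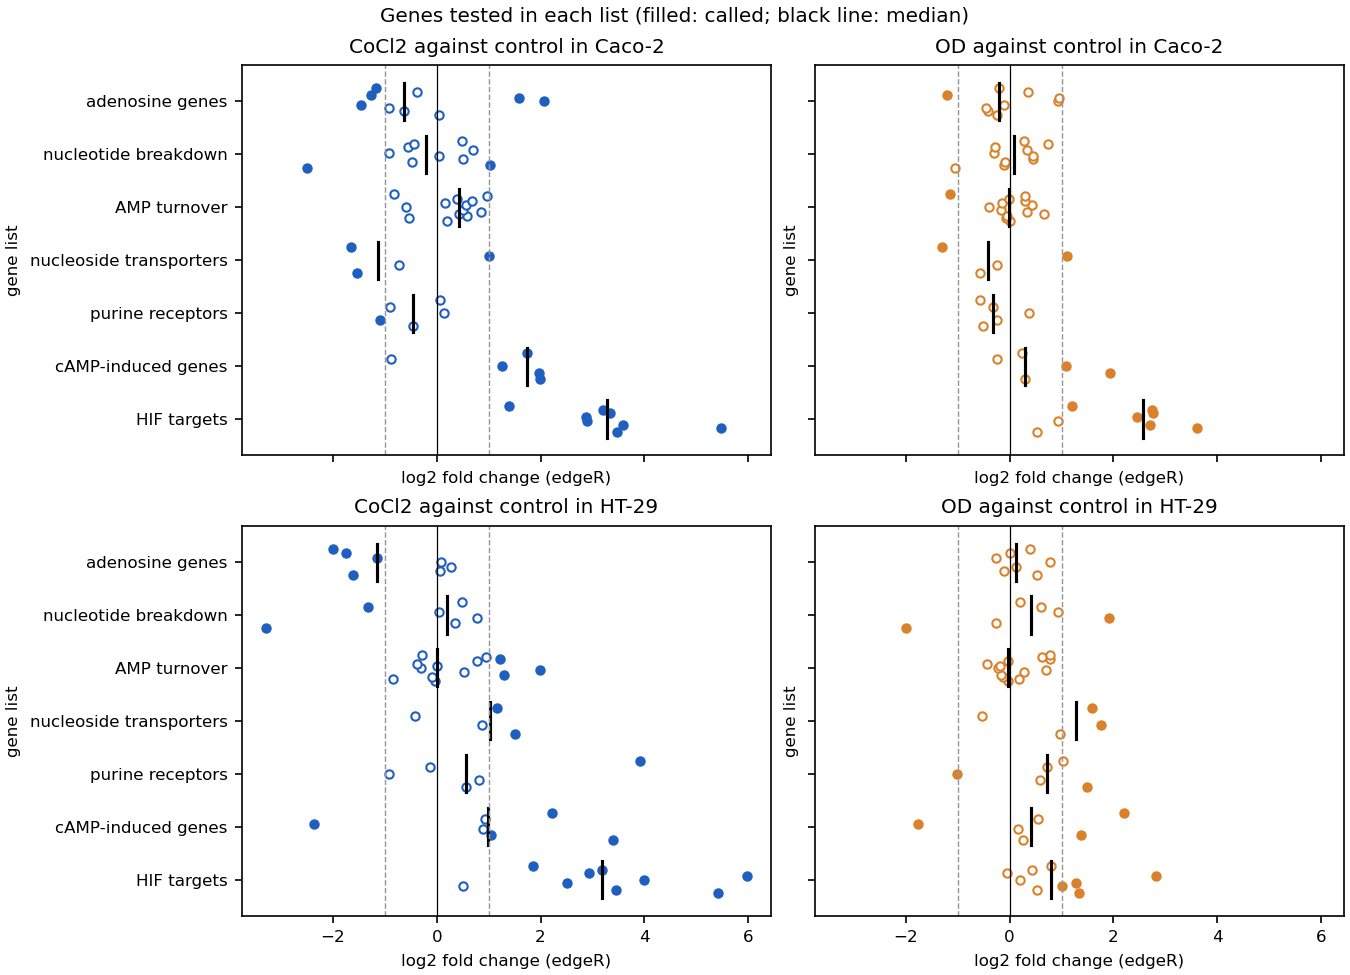
Log2 fold change (edgeR, horizontal axis) of each gene tested in the 9 adenosine genes and in 6 lists of related genes, 1 panel per treatment and line, with filled points for called genes and a black line at the list median. With CoCl2 the median of the HIF targets was 3.27 in Caco-2 and 3.19 in HT-29, beside -0.63 and -1.14 for the adenosine genes.

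The genes with the most similar pattern were ranked by Pearson correlation of log2 CPM over the 18 libraries among 10810 genes, as a description, since the libraries share line, treatment and depth. For NT5E these were PLA2R1 (0.993), TM4SF4 (0.991) and NAPRT (0.990). Those for ADORA2B were UIMC1 (0.951), TM4SF1 (0.940) and CFAP36 (0.912), and for ENTPD2 TGIF1 (0.976), LARP6 (0.974) and SLC41A1 (0.973). SLC29A1 was most like NECTIN1 (0.987), INPP5J (0.986) and DHRS11 (0.984), and SLC29A2 most like FUT2 (0.985), TMEM106A (0.981) and DHTKD1 (0.978). For ADK the order was OAT (0.970), PDGFRB (0.966) and DCBLD1 (0.966). ADA, ADORA1 and ADORA2A, which differ mainly by line, were most like CMTM4 (0.995), APOB (0.996) and AL121832.3 (0.980), respectively. After the mean of each line was removed, correlations of the genes named here ran from 0.816 (PDGFRB with ADK) to 0.988 (TMEM106A with SLC29A2).

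On the GRCh38 genome the genes lie at chr9:137048107-137054061 (ENTPD2, minus strand), chr6:85449584-85495791 (NT5E, plus), chr1:203090654-203167405 (ADORA1, plus), chr22:24417879-24442357 (ADORA2A, plus) and chr17:15945130-15975746 (ADORA2B, plus). The others lie at chr20:44584896-44652252 (ADA, minus), chr10:74151202-74709963 (ADK, plus), chr6:44219553-44234142 (SLC29A1, plus) and chr11:66362521-66372214 (SLC29A2, minus). All 9 are protein-coding. NT5E, ADORA2B and SLC29A1 overlap no other annotated gene. ADORA2A overlaps ADORA2A-AS1 and SPECC1L-ADORA2A, and ADA overlaps PKIG. ENTPD2, SLC29A2, ADORA1 and ADK also overlap noncoding RNAs or pseudogenes, and their counts carry that uncertainty.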

How the data were processed

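Polyadenylated RNA of 18 libraries (single-end, 75 nt, strand-keeping kit) was measured in 6 groups of 3 biological replicates, grouped by the labels. Per the labels and the submitters' processing notes, the authors trimmed reads with cutadapt 2.10 and aligned them with STAR 2.7.5b to GRCh38.p13 with GENCODE 34; the counting tool and strand setting are not given in the sources used here. The deposited counts are raw reads per gene. The deposited log2 values are log2(RPKM + 1), RPKM normalised by the authors within each line, and genes dropped for a line stand at 0. Small RNA libraries were not analysed here.

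Counts were filtered with filterByExpr, TMM-scaled and tested, two-sided, with edgeR 4.0.16 (glmQLFit, glmQLFTest, R 4.3.3) within each line (9 libraries), or over all 18 for line differences. A gene was called at FDR under 0.05 and absolute log2 fold change over 1. The SE is the log2 fold change divided by the root of F, and intervals are 1.96 SE. The script was tested on simulated data. Library totals of 12925719 to 22332639 counts set the precision, and counting intervals cover counting error only. No 2 replicates agreed within sampling noise (chi-square per degree of freedom 1.86 to 11.4). Alternatives were DESeq2 1.42.0 and its size factors, library size alone, no low-count filter, no fold limit, 1 fit for all libraries, a replicate block, limma-trend 3.58.1 on the deposited log2 values and leaving out each library. Coordinates come from GENCODE 44 and promoters from RefSeq. The 9 genes and the lists were chosen with earlier results of these data known; all 9 are named, list genes are named when called against control or as examples, and for likeness the 3 best correlated genes with a mean of at least 100 counts were taken.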

Additional observations from a re-analysis of the deposited data

Results flagged for a closer look

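The response to CoCl2 differed between HT-29 and Caco-2 for 4 of the 7 genes that passed the low-count filter in both lines (interaction test, edgeR, 18 libraries). The difference in log2 fold change, HT-29 less Caco-2, was -1.89 for ADORA2B, which was called higher in Caco-2 (2.06) and had a log2 fold change of 0.28 in HT-29. For ENTPD2 it was -1.62, from 1.59 in Caco-2 and 0.08 in HT-29. For SLC29A1 it was -1.49, from -0.38 in Caco-2 and -1.75 in HT-29. For ADA it was -1.76, from 0.04 in Caco-2 and -1.62 in HT-29, where 24 counts in the controls stood against 5 with CoCl2, and without HT-29 CoCl2 replicate 1 it was -1.51 (FDR 0.0628). ADA passed the HT-29 filter only through its control and OD libraries, so only a fall could be called there. The line and its culture state cannot be told apart in these differences.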

How the results depend on the processing

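Over 69 results and 1314 alternatives, 1241 kept their direction and side of the threshold, 11 lost a call, 34 gained one and 28 changed sign. Of 24 called fold changes, 0 changed sign in 467 alternatives; the line differences of ADORA1 and ADORA2A, near 0 counts in HT-29, were left out. Without the fold limit, the genes called were 8 (CoCl2 in Caco-2), 5 (OD in Caco-2), 3 (OD in HT-29), 5 and 6 (CoCl2 against OD in Caco-2 and HT-29) and 3 (OD interaction). With limma-trend on the log2(RPKM + 1) values they were 2 with CoCl2, 0 with OD and 0 for CoCl2 against OD in Caco-2. Leaving out 1 library gave 1 to 2 for OD in Caco-2 and 1 to 3 for CoCl2 against OD in Caco-2.

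Library size alone shifted the median of all genes by -0.32 (CoCl2) and -0.15 (OD) in Caco-2, and by -0.63 and -0.14 in HT-29. The calls over all genes for OD in Caco-2 went from 711 higher and 1165 lower to 500 and 1644, and in HT-29 from 1502 and 1197 to 1225 and 1596. For CoCl2 against OD it called 5 of the 7 genes tested in HT-29. It changed the sign for CoCl2 of ADA in Caco-2 (-0.28) and of ADORA2B (-0.35), ADK (-0.57) and ENTPD2 (-0.56) in HT-29, for OD of ADORA2B (-0.00385) and SLC29A1 (-0.13) in HT-29, for CoCl2 against OD in HT-29 of ADORA2B (-0.35) and ADK (-0.31), and of the NT5E interaction (-0.17). A single fit of all libraries gave -0.0383 for ADK and -0.0305 for ENTPD2 (CoCl2, HT-29) and -0.00768 for SLC29A1 (OD, HT-29). For the same, limma-trend gave -0.00908, -0.0104 and -0.0191, and SLC29A1 was -0.0141 with DESeq2 and -0.0112 with its size factors. The cause was not tested.

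Leaving out 1 library moved the sign of values near 0: ADA (CoCl2, Caco-2) from -0.0750 to 0.138, ADORA2A (OD, Caco-2) from -0.253 to 0.0117, ADK (CoCl2, HT-29) from -0.00349 to 0.176, SLC29A1 (OD, HT-29) from -0.0620 to 0.0508, NT5E (CoCl2 against OD, Caco-2) from -0.147 to 0.0738, ADORA2B (CoCl2 against OD, HT-29) from -0.0124 to 0.230 and the NT5E interaction (CoCl2) from -0.118 to 0.110. With a replicate block, 5 (CoCl2) and 1 (OD) genes were called in Caco-2, 4 and 0 in HT-29. Replicate numbers did not pair the libraries (correlations of same-numbered deviations -0.184 to 0.189 in Caco-2, -0.0899 to 0.059 in HT-29, best with the own number in 11 of 36 cases). Depth limits ADORA1, ADORA2A and ADA in HT-29.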
